A study of Mus musculus with 9 samples.

Results

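The CXC chemokine ligands were followed in mouse bone-marrow-derived macrophages treated with an antibody to PD-L1, the surface ligand of the inhibitory receptor PD-1. The set holds 10 genes taken by symbol from the 22376 gene symbols listed: the ELR ligands Cxcl1, Cxcl2, Cxcl3 and Cxcl5, the interferon-induced ligands Cxcl9, Cxcl10 and Cxcl11, and the other ligands Cxcl14, Cxcl16 and Pf4. All 10 passed the filter on low values. Marrow came from tibias and femurs of wild-type C57Bl/6 mice and grew for 1 week in M-CSF at 10 ng/ml, the growth factor that turns marrow precursors into macrophages. For every group, 50000 of these cells were then washed free of M-CSF and kept in wells for 48 h. The PD-L1 antibody group (libraries 1 to 3) received the antibody at 100 ug/ml, the isotype group (libraries 4 to 6) an irrelevant isotype-matched antibody at the same 100 ug/ml, and the untreated group (libraries 7 to 9) no antibody. Ages and sexes are not given in the sources used here, and the labels do not say whether the 3 libraries of a group came from separate mice or separate cultures.

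Chemokines are small secreted proteins that direct the movement of leukocytes, and the CXC class has a single residue between the first pair of its conserved cysteines. Ligands with the residues glutamate, leucine and arginine (ELR) just before that pair bind CXCR2 and draw neutrophils, and their genes are well known targets of NF-kB in macrophages exposed to microbial products. Cxcl9, Cxcl10 and Cxcl11 lack ELR, bind CXCR3 on activated T cells and NK cells, and are induced by interferons. Cxcl16 is a transmembrane ligand and scavenger receptor recognised by CXCR6, Pf4 (Cxcl4) is best known from platelet granules, and Cxcl14 is made mostly by epithelia and other tissue cells.

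The feature that divides the family can be read in the coding sequences. Below, the capitals mark the 3 codons just before the first cysteine codon (tgt or tgc) of the CXC pair, within 30 bases of coding sequence from the GENCODE M21 transcripts (GRCm38), written 5′ to 3′ on the coding strand.
Cxcl1: gccaatGAGCTGCGCtgtcagtgcctgcag
Cxcl2: gccagtGAACTGCGCtgtcaatgcctgaag
Cxcl3: gccagtGAGCTGCGCtgtcagtgcctgaac
Cxcl5: gcaacgGAGCTGCGTtgtgtttgcttaacc
Cxcl9: ataaggAATGCACGAtgctcctgcatcagc
Cxcl10: gcaaggACGGTCCGCtgcaactgcatccat
Cxcl11: ttcaaaCAGGGGCGCtgtctttgcatcggc
Cxcl14: gtggacGGGTCCAAGtgtaagtgttcccgg
Cxcl16: agtgtcGCTGGAAGTtgttcttgtgatcgt
Pf4: gatggaGATCTTAGCtgtgtgtgtgtgaag
These 3 codons encode glutamate, leucine and arginine in Cxcl1, Cxcl2, Cxcl3 and Cxcl5, and in none of the other 6 ligands. Over the whole coding sequence Cxcl2 and Cxcl3 were 89.8% identical (272 of 303 aligned bases). The longest identical run of their transcripts was 110 bases, shorter than a 150-base read. Cxcl1 was 78.7% identical to Cxcl2 and 75.6% to Cxcl3, with identical runs of at most 23 bases between transcripts. This gapped alignment also gave 74.2% for Cxcl1 with Cxcl16 and 78.3% for Cxcl14 with Cxcl16, so the values for Cxcl1 do not set it apart. How the authors' software divided reads between copies as alike as Cxcl2 and Cxcl3 is not given in the sources used here, so their levels carry that uncertainty.

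Promoter windows of 250 bases before the start were held by the RefSeq table (GRCm38.p6) for 7 of the 10 ligands, all except Cxcl5, Cxcl11 and Cxcl16. Those of Cxcl1, Cxcl2, Cxcl3 and Cxcl10 are shown because these genes rose together and their windows hold matches to NF-kB or interferon motifs. Capitals mark every match to the NF-kB motif (GGG, any 3 bases, TTCC), the interferon-stimulated response element (GAAA, any 2 bases, GAAA), the gamma-activated site TTCNNNGAA or the AP-1 motif TGANTCA, searched on both strands, and each sequence runs 5′ to 3′ toward the start of the gene.
Cxcl1, chr5:90890995-90891244, plus strand: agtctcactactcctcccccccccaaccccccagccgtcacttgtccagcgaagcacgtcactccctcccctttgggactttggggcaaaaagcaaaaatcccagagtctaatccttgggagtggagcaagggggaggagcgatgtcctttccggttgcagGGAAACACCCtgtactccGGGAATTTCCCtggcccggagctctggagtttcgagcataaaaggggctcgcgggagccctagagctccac
Cxcl2, chr5:90903649-90903898, plus strand: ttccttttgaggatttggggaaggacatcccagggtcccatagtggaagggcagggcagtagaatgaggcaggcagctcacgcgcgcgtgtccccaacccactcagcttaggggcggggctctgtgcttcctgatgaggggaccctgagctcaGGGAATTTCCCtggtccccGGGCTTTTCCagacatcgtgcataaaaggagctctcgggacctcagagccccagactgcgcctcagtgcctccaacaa
Cxcl3, chr5:90785851-90786100, plus strand: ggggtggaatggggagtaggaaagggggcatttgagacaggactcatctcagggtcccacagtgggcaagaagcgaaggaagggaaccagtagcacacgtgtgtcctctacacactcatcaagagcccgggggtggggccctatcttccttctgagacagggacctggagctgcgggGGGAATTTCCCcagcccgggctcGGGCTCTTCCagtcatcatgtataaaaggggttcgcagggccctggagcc
Cxcl10, chr5:92348890-92349139, minus strand: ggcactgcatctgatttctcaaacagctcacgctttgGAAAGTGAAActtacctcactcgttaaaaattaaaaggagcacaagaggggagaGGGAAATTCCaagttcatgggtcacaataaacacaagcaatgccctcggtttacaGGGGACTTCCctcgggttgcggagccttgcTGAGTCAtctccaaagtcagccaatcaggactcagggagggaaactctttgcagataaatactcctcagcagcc
The run GGGAATTTCCC, which matches the NF-kB motif on both strands, lay 71 to 61 bases before the start of Cxcl1, 97 to 87 before that of Cxcl2 and 73 to 63 before that of Cxcl3. Each of these 3 windows held another NF-kB match, GGAAACACCC in Cxcl1, GGGCTTTTCC in Cxcl2 and GGGCTCTTCC in Cxcl3. In Cxcl10 there were 2 NF-kB matches (GGGAAATTCC and GGGGACTTCC), 1 interferon element (GAAAGTGAAA) and 1 AP-1 match (TGAGTCA). Among 32851 RefSeq promoter windows of this length, 4.65% held the NF-kB motif, 2.98% the interferon element, 7.02% the gamma-activated site and 6.75% the AP-1 motif, and 0.11% held both of the first pair. Cxcl14 held an interferon element and a gamma-activated site, while the windows of Cxcl9 and Pf4 held no match to these 4 motifs. No match overlapped a match of another of these motifs. A match is a run of letters and not a measured binding site.

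Levels are given in CPM, the exonic read equivalents of a gene per 1000000 of the library's TMM-scaled total. The exonic totals ranged from 23554320 (untreated library 7) to 40116467 (untreated library 9) read equivalents. Changes are differences of log2(CPM + 1) with their standard error (SE), tested with limma over 13743 genes, and a gene was called at a Benjamini-Hochberg adjusted p under 0.05. Each group had 3 libraries, and values with ± are means and SD over them. The 8 macrophage markers were above 0 in every library, with summed levels of 22100 to 26500 CPM with the PD-L1 antibody, 19400 to 23000 with isotype and 17400 to 22800 untreated, while summed T and NK cell markers stayed at 0.249 to 3.02 CPM. One library stood apart from its group: on the second principal component (12.3% of variance) untreated 7 lay at -15.82, within the isotype libraries (-18.68 to -3.23), and untreated 8 and 9 at 22.77 and 22.51. PD-L1 antibody library 2 was run in lane 4 by its deposited name and the other 8 libraries in lane 1.

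With the PD-L1 antibody, 9 of the 10 ligands were higher than with the isotype antibody and none was lower, where 18.2% of all tested genes were called higher and 18.2% lower. Against untreated cells all 10 were higher and none lower, where 22% of all tested genes were called higher and 20.5% lower. The 3 antibody libraries lay above all 3 control libraries for 9 ligands against isotype (26% of all tested genes) and for 10 against untreated cells (26.3%). The median change was 2.69 over the 10 ligands against isotype and 2.29 against untreated cells, beside -0.01 over all tested genes in each. Both comparisons share the 3 PD-L1 antibody libraries, so they are not independent of each other. None of the 10 passed the filter only through the antibody group: each reached its level of 0.342 CPM in at least 5 of the 6 control libraries.

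**Figure D1:**
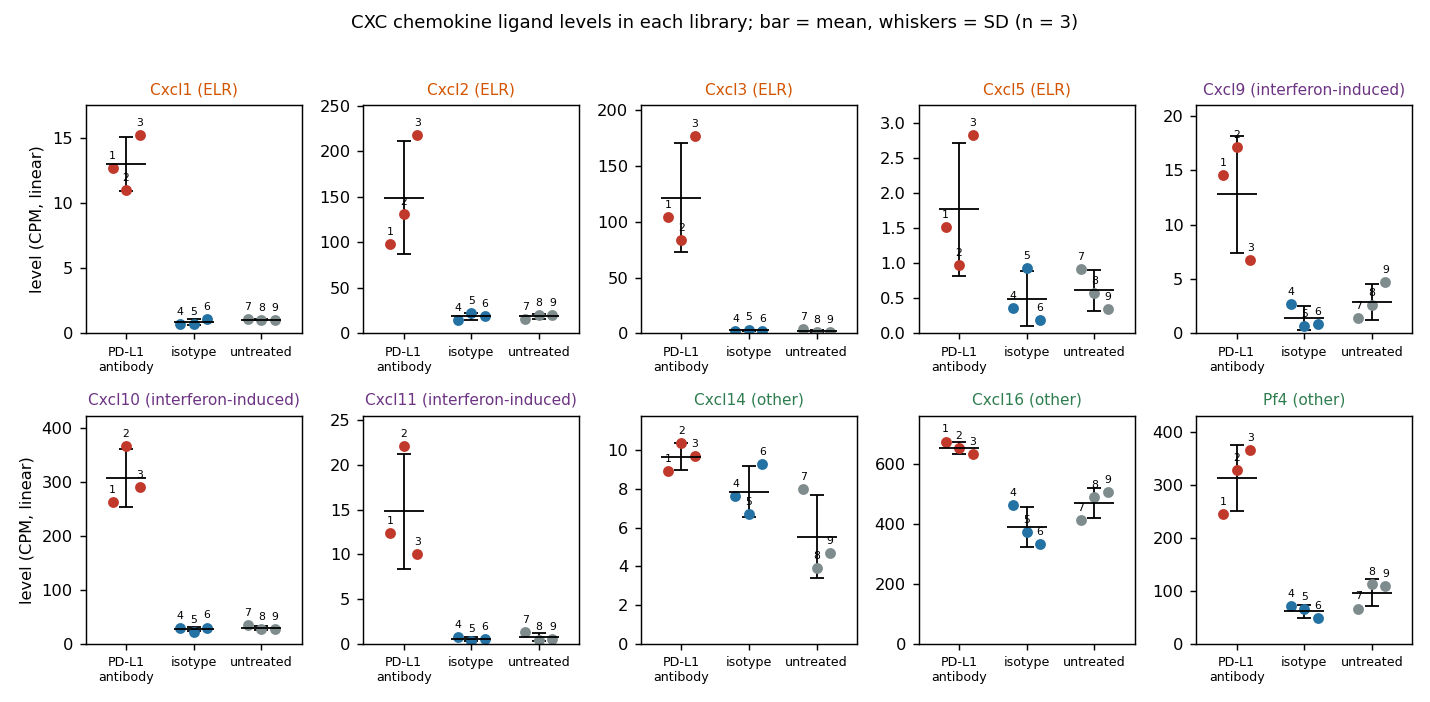
Level of each of the 10 ligands in CPM (vertical axes, linear, each starting at 0) in the 9 libraries, which are drawn as points numbered by replicate under their group, with a bar at the mean and whiskers of 1 SD (n = 3). The antibody libraries sit above all control libraries in every panel except Cxcl14, where antibody library 1 (8.95 CPM) lies below isotype library 6 (9.27 CPM).

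Among the ELR ligands, Cxcl3 changed the most. Its gene (chr5:90786101-90788093, plus strand) had levels of 104.3, 83.7 and 177 CPM in antibody libraries 1, 2 and 3, against 2.03, 3.50 and 2.57 CPM in isotype libraries 4 to 6 and 3.69, 1.14 and 1.52 CPM in untreated libraries 7 to 9. All 3 antibody libraries were far above every control library, and no groups overlapped between antibody and controls. The mean of 121.7 ± 49 CPM was 45.1 times the isotype mean of 2.70 ± 0.746 CPM, and 57.4 times the untreated mean of 2.12 ± 1.38 CPM. On the log2(CPM + 1) scale Cxcl3 rose by 5.0 (SE 0.31, adjusted p 7.2e-07) against isotype, the 9th largest increase of the 13743 genes tested, and by 5.31 (SE 0.31, adjusted p 4.61e-07) against untreated cells, the 5th largest.

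Cxcl2, the macrophage inflammatory protein 2 of mouse (chr5:90903899-90905938, plus strand), stood at 98.1, 131.7 and 217.8 CPM in the antibody libraries. It was already present in controls, at 14.7, 22.2 and 19.6 CPM with isotype and 15.9, 20.1 and 20.2 CPM untreated. The antibody libraries differed among themselves by more than the controls did, yet the lowest of them was far above the highest control. Cxcl2 rose by 2.86 (SE 0.24, adjusted p 6.39e-06) against isotype and by 2.86 (SE 0.24, adjusted p 6.21e-06) against untreated cells, a mean of 149.2 ± 61.7 CPM against 18.8 ± 3.83 and 18.7 ± 2.41 CPM.

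Cxcl1, the keratinocyte-derived chemokine (chr5:90891245-90893115, plus strand), stood at 12.7, 11.1 and 15.2 CPM with the antibody. Its control levels were near 1: 0.732, 0.751 and 1.13 CPM with isotype and 1.12, 0.999 and 1.05 CPM untreated. It had the narrowest relative spread of the ELR ligands within the antibody group (13.0 ± 2.09 CPM), with no overlap. Cxcl1 rose by 2.90 (SE 0.14, adjusted p 1.21e-07) against isotype and by 2.76 (SE 0.14, adjusted p 1.76e-07) against untreated cells.

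Cxcl5 (chr5:90759298-90761625, plus strand), which also attracts neutrophils through CXCR2, had the lowest mean level per kb of exon of the 10 ligands in each group. It had 1.52, 0.978 and 2.83 CPM with the antibody, 0.364, 0.937 and 0.194 CPM with isotype and 0.920, 0.581 and 0.343 CPM untreated. Antibody library 2 lay only just above isotype library 5 and untreated library 7, and counts ran from 7.11 exonic read equivalents in isotype library 6 to 68.6 in antibody library 3. Cxcl5 rose by 0.87 (SE 0.25, 95% interval 0.31 to 1.42, adjusted p 0.0201) against isotype and by 0.74 (SE 0.25, 0.19 to 1.30, adjusted p 0.035) against untreated cells. The call against isotype was lost without antibody library 3 (0.61, adjusted p 0.0753), without isotype library 4 (0.81, adjusted p 0.0596) or without isotype library 6 (0.72, adjusted p 0.0789), in limma refits. Against untreated cells it was lost without antibody library 1 (0.79, adjusted p 0.066), antibody library 3 (0.49, adjusted p 0.133), untreated library 8 (0.73, adjusted p 0.0798) or untreated library 9 (0.62, adjusted p 0.115).

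The interferon-induced ligands rose together as well, with Cxcl10 at the highest level per kb of exon. Cxcl10 (interferon-gamma-induced protein 10, chr5:92346639-92348889, minus strand) had 263.3, 367 and 291.1 CPM with the antibody, against 29.3, 22.2 and 30.02 CPM with isotype and 34.3, 26.9 and 27.4 CPM untreated. The groups did not overlap, and the control libraries stayed close to one another. Cxcl10 rose by 3.45 (SE 0.15, adjusted p 5.05e-08) against isotype and by 3.33 (SE 0.15, adjusted p 5.85e-08) against untreated cells, 11.3 and 10.4 times the control means. Of its exonic bases over all GENCODE M21 transcripts, 5.86% (132 of 2251) overlap the antisense gene Art3. The share within the counted transcript was not computed, and whether counting used strand is not given in the sources used here.

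Cxcl11 (chr5:92359545-92363296, minus strand) went from near absence to 12.4, 22.1 and 9.98 CPM with the antibody. Control levels were 0.802, 0.305 and 0.505 CPM with isotype and 1.27, 0.471 and 0.536 CPM untreated, from 8.04 to 31.8 exonic read equivalents a library. Every antibody library was well above every control. Cxcl11 rose by 3.30 (SE 0.27, adjusted p 4.01e-06) against isotype and by 3.12 (SE 0.27, adjusted p 6e-06) against untreated cells. C57Bl/6 mice are known to carry a frameshift in this gene that leaves them without the mature protein, and the RefSeq transcript with the most reads here is a non-coding record, so these values describe RNA only.

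Cxcl9 (monokine induced by interferon gamma, chr5:92321331-92328079, minus strand) had the weakest rise of the 3 and the widest spread. It stood at 14.5, 17.1 and 6.76 CPM with the antibody, 2.72, 0.671 and 0.855 CPM with isotype and 1.46, 2.58 and 4.70 CPM untreated. Antibody library 3 was the lowest of its group and came nearest to untreated library 9, but the groups did not overlap. Cxcl9 rose by 2.52 (SE 0.39, 95% interval 1.66 to 3.39, adjusted p 0.000493) against isotype and by 1.82 (SE 0.39, 0.95 to 2.68, adjusted p 0.00355) against untreated cells.

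Pf4 had the largest change of the other 3 ligands. Pf4 (chr5:90772435-90773383, plus strand) stood at 245.1, 327.9 and 366.4 CPM with the antibody, 71.2, 65.1 and 47.9 CPM with isotype and 66.4, 113.2 and 108.4 CPM untreated. It rose by 2.33 (SE 0.22, adjusted p 1.19e-05) against isotype and by 1.71 (SE 0.22, adjusted p 0.000101) against untreated cells, with no overlap. Markers of megakaryocytes and platelets, the cells Pf4 is best known from, were not called higher beside it. Against isotype 0 of the 8 tested were higher and 5 lower, where 18.2% of all tested genes were called higher and 18.2% lower. Among the 5 were the platelet receptor genes Clec1b (-1.22), Gp1bb (-1.13), Gp9 (-1.08) and Gp1ba (-1.06). Their summed level was 28.2 to 49.0 CPM with the antibody, 51.2 to 79.1 with isotype and 67.9 to 108 untreated, all 8 above 0 in every library. In bulk RNA, fewer cells of a type and less RNA per cell cannot be told apart.

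Cxcl16 was high in every group and rose less than most of the other ligands. Its gene (chr11:70454389-70459984, minus strand) had 674.5, 652.9 and 633.9 CPM with the antibody, 463.7, 374.0 and 333.8 CPM with isotype and 413.6, 490.5 and 504.6 CPM untreated. The groups did not overlap between antibody and controls, though the ratio of means was 1.67 against isotype and 1.39 against untreated cells. Cxcl16 rose by 0.76 (SE 0.12, adjusted p 0.000639) and 0.48 (SE 0.12, adjusted p 0.00859). Of the 4 RefSeq transcripts listed for Cxcl16, the one with the most reads is a non-coding record. The exon length of that record also sets the levels of Cxcl16 per kb. The antisense gene Zmynd15 shares 21.1% (552 of 2615) of the exonic bases that GENCODE M21 gives Cxcl16 over all transcripts. The share within the counted transcript was not computed.

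Cxcl14 (chr13:56288643-56296551, minus strand) was the exception. It had 8.95, 10.4 and 9.72 CPM with the antibody, 7.63, 6.70 and 9.27 CPM with isotype and 7.98, 3.93 and 4.69 CPM untreated. Antibody and isotype libraries overlapped, and the difference of 0.28 (SE 0.20, 95% interval -0.17 to 0.72, adjusted p 0.319) was within the spread. Against untreated cells Cxcl14 rose by 0.76 (SE 0.20, 0.31 to 1.2, adjusted p 0.0112). Stromal and fibroblast markers, from cells that can make Cxcl14, were higher for 3 of the 6 tested against isotype (18.2% of all tested genes). These were the matrix genes Dcn (1.70) and Col3a1 (1.55) and the receptor gene Pdgfrb (0.74), while Pdgfra (0.24), Col1a1 (0.01) and Col1a2 (-0.24) were not called. Against untreated cells, where Cxcl14 was called, 1 marker was higher, Dcn (1.22), and 1 lower, Col1a2 (-0.92, outside the naming rule). Of all tested genes, 22% were called higher and 20.5% lower there. The summed level of the stromal markers was 32.2 to 51.9 CPM with the antibody, 22.8 to 36.8 with isotype and 31.0 to 60.4 untreated. Of these markers 6 of 7 were above 0 in every library, and their part in the level of Cxcl14 was not tested.

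**Figure D2:**
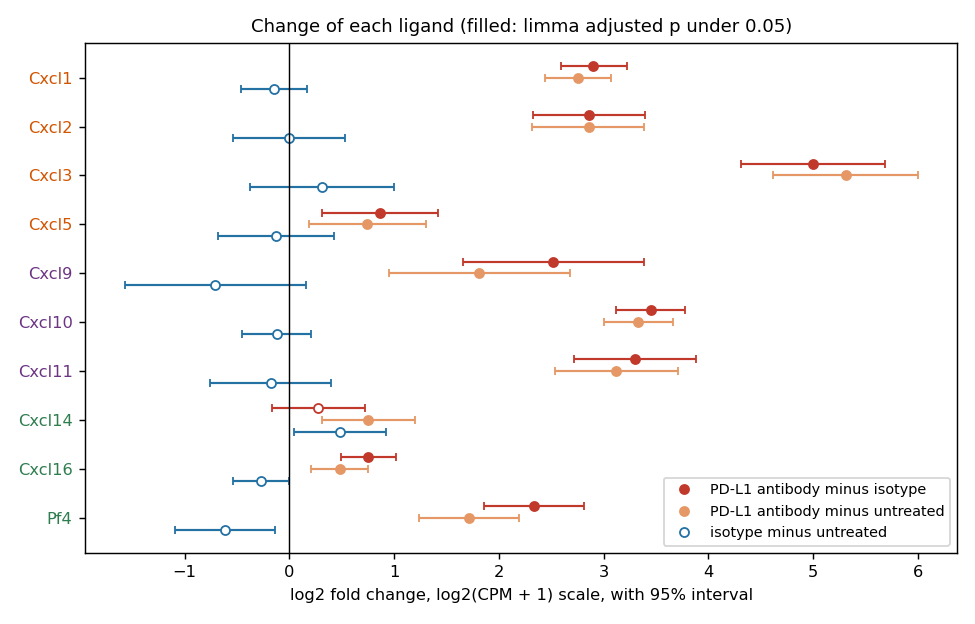
Change of each ligand (horizontal axis, difference of log2(CPM + 1) with its 95% interval) for the antibody against isotype, the antibody against untreated cells and isotype against untreated cells, with filled points for calls at a limma adjusted p under 0.05. The points of both antibody comparisons lie to the right of 0, farthest for Cxcl3 (5.0 and 5.31), and those of isotype against untreated cells are all open.

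The 4 ELR and the 3 interferon-induced ligands of the set both rose. Ppbp, a CXC ligand outside the set, did not: its change was -0.40 against isotype (limma adjusted p 0.149). Against untreated cells it fell by 0.86 (limma adjusted p 0.00598). The codons before its cysteine pair were not read here, and it is in neither the medians nor the sums below. Against isotype the median change was 2.88 for the 4 ELR ligands and 3.30 for the 3 interferon-induced ligands, and against untreated cells 2.81 and 3.12, while the other 3 ligands had 0.76 in both. Within a library the summed level per kb of exon of the ELR ligands, divided by that of the interferon-induced ligands, was 0.823, 0.612 and 1.44 with the antibody, 0.588, 1.23 and 0.786 with isotype and 0.619, 0.823 and 0.798 untreated. These ratios overlapped in all 3 groups, so no shift of either class against the other was larger than the spread between libraries. The ELR sum itself was 207, 216 and 393 CPM per kb with the antibody and 16.5 to 25.3 in the 6 controls, and the interferon-induced sum 252, 353 and 273 against 20.6 to 32.5.

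The antibody libraries did not rank alike for the 2 classes. All 4 ELR ligands were highest in antibody library 3, and all 3 interferon-induced ligands in antibody library 2, with Cxcl9 and Cxcl11 lowest in library 3. Of all tested genes, 38.4% were highest in library 3 and 32% in library 2. Library 2 was the one run in lane 4, and the part of the lane in this order was not tested.

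Per length, the order of the ligands changed with the antibody. With isotype the mean level was 231 ± 39.3 CPM per kb of exon for Cxcl16, 104 ± 20.5 for Pf4, 24.7 ± 3.94 for Cxcl10, 17.4 ± 3.53 for Cxcl2 and under 5 for each of the other 6 (4.31 for Cxcl14 at most). With the antibody it was 533 ± 105 for Pf4, 386 ± 12.0 for Cxcl16, 279 ± 48.8 for Cxcl10, 138 ± 57.0 for Cxcl2 and 120 ± 48.2 for Cxcl3, then 13.7 ± 2.20 for Cxcl1, 9.24 ± 4 for Cxcl11, 5.30 ± 0.383 for Cxcl14, 4.41 ± 1.85 for Cxcl9 and 1.07 ± 0.574 for Cxcl5. Cxcl2 and Cxcl3 were within their spread of each other there, as were Cxcl14 and Cxcl9. Untreated cells had the isotype order at the top, with Cxcl16 at 278 and Pf4 at 163 CPM per kb. Cxcl16 outweighed Pf4 in each control library, by 1.51 to 2.42 times, and lay below it in each antibody library, at 0.957, 0.692 and 0.601 times.

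Within the ELR class the balance of Cxcl2 and Cxcl3 also shifted. Cxcl2 per kb was 6.78, 5.95 and 7.18 times Cxcl3 in the isotype libraries and 4.06, 16.5 and 12.4 times in the untreated ones, against 0.884, 1.48 and 1.16 times with the antibody. All antibody ratios lay below all control ratios. The share of the 10 ligands' summed level that was ELR was 16.2%, 14.2% and 23.5% with the antibody and 3.72% to 6.63% in controls, and the interferon-induced share 19.7%, 23.3% and 16.4% against 4.82% to 8.36%. The share of Cxcl16 was 31.1%, 25.4% and 22.4% with the antibody and 54.6% to 61.7% in controls.

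**Figure D3:**
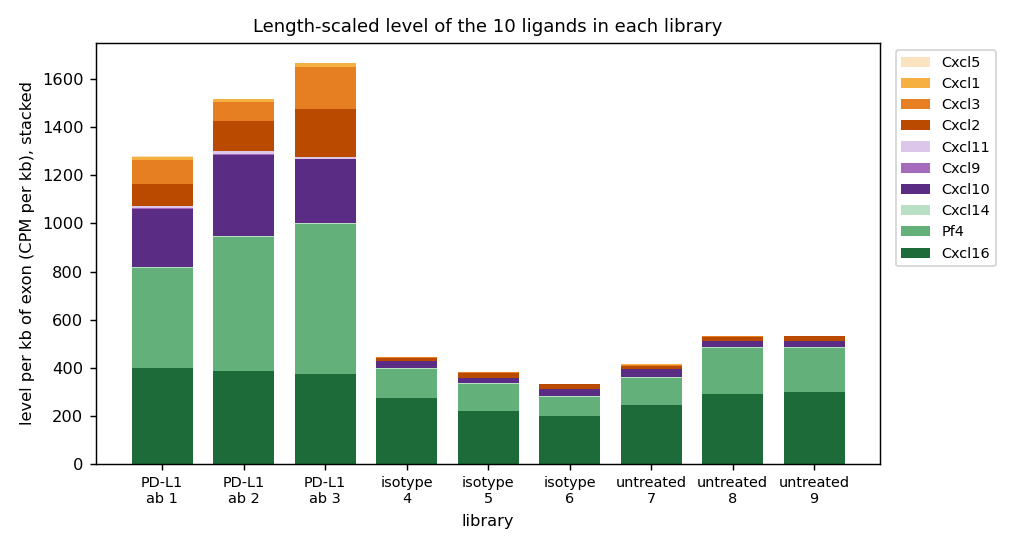
Level of the 10 ligands per kb of exon (CPM per kb, vertical axis, stacked from 0) in each of the 9 libraries (horizontal axis), with 1 colour per ligand. The stacks reach 1280, 1520 and 1670 CPM per kb in the antibody libraries and 334 to 533 in the 6 controls, where Cxcl16 fills 54.6% to 61.7% of the stack.

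Of the 10 ligands, 8 lie on chromosome 5 in a pair of clusters. The first runs from Cxcl5 over Ppbp, Pf4, Cxcl3, Cxcl15 and Cxcl1 to Cxcl2, all on the plus strand, and the second holds Cxcl9, Cxcl10 and Cxcl11 on the minus strand, 1415.4 kb further on. The rise did not extend to every gene between the members. Ppbp, the precursor of platelet basic protein, starts 9.2 kb after the start of Cxcl5 and ends 2.4 kb before Pf4, and had 10.4, 12.5 and 18.4 CPM with the antibody, 19.8, 21.0 and 14.0 with isotype and 26.2, 28.7 and 20.9 untreated. Its change was -0.40 (limma adjusted p 0.149) against isotype, with overlapping libraries, and it fell by 0.86 (adjusted p 0.00598) against untreated cells. Cxcl15, between Cxcl3 and Cxcl1, did not pass the filter.

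**Figure D4:**
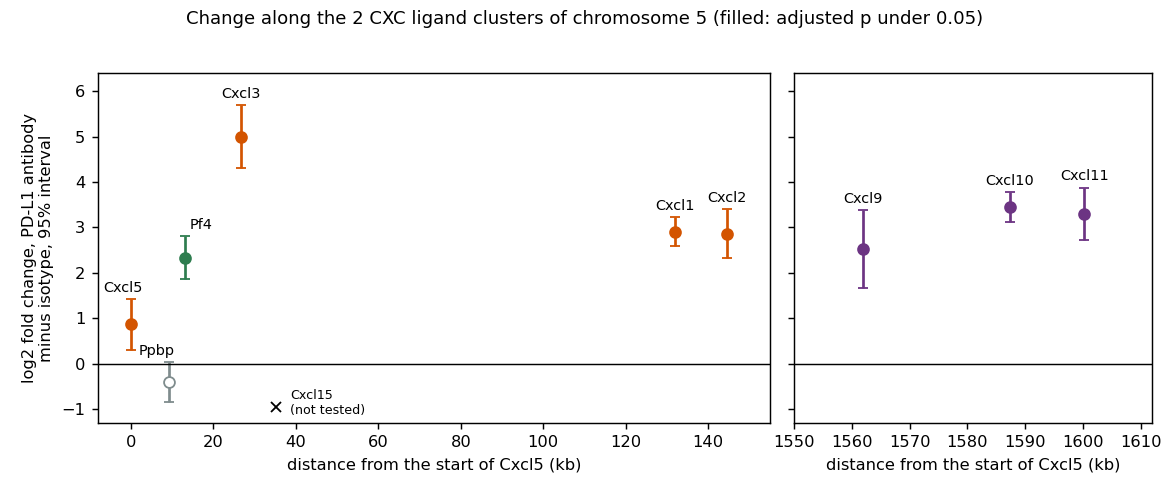
Change with the antibody against isotype (vertical axis, difference of log2(CPM + 1) with its 95% interval) of the ligand genes of both chromosome 5 clusters, placed by the distance of their starts from that of Cxcl5 in kb (horizontal axis), filled where the limma adjusted p was under 0.05. A cross marks Cxcl15, which was not tested and has no value. Ppbp (-0.40, open) lies between Cxcl5 (0.87) and Pf4 (2.33).

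Between the isotype antibody and untreated cells no ligand passed the test: 0 of 10 were called by limma, and 0 also by edgeR, DESeq2 and limma-voom, where limma called 0.00728% of all tested genes (1 of 13743). At an unadjusted p under 0.05 there were 3 of 10: Pf4 at -0.62 (SE 0.22, unadjusted limma p 0.0155, adjusted p 0.348), Cxcl14 at 0.48 (SE 0.20, unadjusted p 0.0365, adjusted p 0.376) and Cxcl16 at -0.27 (SE 0.12, unadjusted p 0.0467, adjusted p 0.39). The intervals of the ELR ligands ran from -0.46 to 0.17 for Cxcl1 and -0.54 to 0.53 for Cxcl2. They ran from -0.38 to 1.00 for Cxcl3 and -0.68 to 0.43 for Cxcl5. Cxcl9 had the largest difference of the 10 ligands, -0.71, with a wide interval of -1.57 to 0.16. The intervals of Cxcl10 and Cxcl11 ran from -0.45 to 0.21 and from -0.76 to 0.40. This comparison turned on untreated library 7. Without it, 16.4% of all tested genes were called (2295 of 13988), and among the ligands Pf4 was lower with isotype (-0.86, SE 0.17, adjusted p 0.00766) and Cxcl14 higher (0.73, SE 0.15, adjusted p 0.00772). The Pf4 level of untreated 7 (66.4 CPM) lay in the isotype range, and its Cxcl14 level (7.98 CPM) above that of untreated 8 and 9.

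Of the 8 CXC receptor genes listed, 6 were tested and Cxcr1 and Ackr3 were not. Against isotype 1 was higher and 2 were lower, where 18.2% of all tested genes were called higher and 18.2% lower. The receptors were not tested as a group against other genes. Cxcr3, the receptor of Cxcl9, Cxcl10 and Cxcl11, stood at 2.20, 2.64 and 1.63 CPM with the antibody, 7.71, 6.97 and 6.60 with isotype and 8.81, 10.2 and 10.8 untreated, with no overlap, and fell by 1.37 (adjusted p 2.9e-05 in limma) and 1.80 (adjusted p 3.85e-06). Cxcr4, which binds Cxcl12, stood at 145.7 to 211 CPM with the antibody, 326.5 to 399.1 with isotype and 311.8 to 459.1 untreated, and fell by 1.04 and 1.17. Cxcr5, which binds Cxcl13, rose by 1.49 and 1.28, from 0.0598 to 0.909 CPM over the 6 controls to 2.68 to 3.21 CPM. Ackr1, a decoy receptor of inflammatory chemokines, was at most 0.544 CPM and was not called (-0.25, adjusted p 0.255). Cxcr2, the receptor of the ELR ligands, and Cxcr6, that of Cxcl16, fall outside the rule for naming genes and were picked after their values were seen. Cxcr6 was not called against isotype (-0.28, adjusted p 0.389) or untreated cells (-0.34, adjusted p 0.256). Cxcr2 stood at 7.65, 11.2 and 6.99 CPM with the antibody and 8.59, 5.4 and 6.9 with isotype, which overlapped (0.27, adjusted p 0.286), and at 5.13, 4.85 and 4.82 untreated (0.67, adjusted p 0.012). Of the 5 other CXC ligand genes only Ppbp and Cxcl12 were tested, and Cxcl12 was not called (-0.17, adjusted p 0.524).

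Genes of the NF-kB system that controls the ELR ligands were mostly higher with the antibody. Of 16 listed and tested, 10 were higher and 0 lower against isotype (18.2% of all tested genes higher), with a median change of 0.61. Against untreated cells 11 were higher and 0 lower (22% of all tested genes higher), with a median of 0.60. The 4 with the lowest p against isotype were Zc3h12a, the RNase that cuts cytokine transcripts (1.74), Nfkbia, the inhibitor IkB-alpha (1.47), Nfkbiz, a nuclear cofactor (1.82), and Tnfaip3, the deubiquitinase A20 (1.52). Nfkbiz stood at 42.9, 59.8 and 77.0 CPM with the antibody, 15.4, 15.7 and 16.2 with isotype and 18.6, 17.6 and 18.6 untreated, highest in antibody library 3 as were the ELR ligands. In all, 13 of the 16 were highest in that library, as were 38.4% of all tested genes. The subunit genes Rela (0.05) and Relb (0.18), which fall outside the naming rule, were not called against isotype.

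Genes of the interferon pathway were also mostly higher. Of 16 tested, Ifnb1, the gene of interferon beta, passed the filter only through the antibody libraries: it stood at 2.08, 2.87 and 2.76 CPM there and at 0 to 0.154 CPM in the 6 controls, below the filter level of 0.342 CPM, so its difference is given as levels only. Of the other 15, 11 were higher and 0 lower against isotype (median 0.47), where 18.2% of all tested genes were called higher. Against untreated cells 10 of the 15 were higher (22% of all tested genes) and 2 lower (median 0.38), the pair being Ifngr1 (-0.48) and Irf8 (-0.54), which fall outside the naming rule. When libraries were scaled by total counts alone, the median of all genes moved by -0.14. The count against isotype over all 16, Ifnb1 among them, then went from 12 higher and 0 lower to 10 and 2. Upper quartile scaling gave the same count. The call of Ifnb1 adds no support, and the count over the other 15 was not made for these scalings. The kinase gene Jak2 rose by 1.76 against isotype, and the feedback inhibitors of interferon signalling Usp18 by 1.93 and Socs1 by 1.92. Ifng, the gene of interferon gamma and also outside the naming rule, did not pass the filter (0 to 0.148 CPM over the 9 libraries). Within the antibody group 8 of the 16 were highest in library 3 (38.4% of all tested genes). In library 2 there were 5, Ifnb1 among them (32% of all tested genes).

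**Figure D5:**
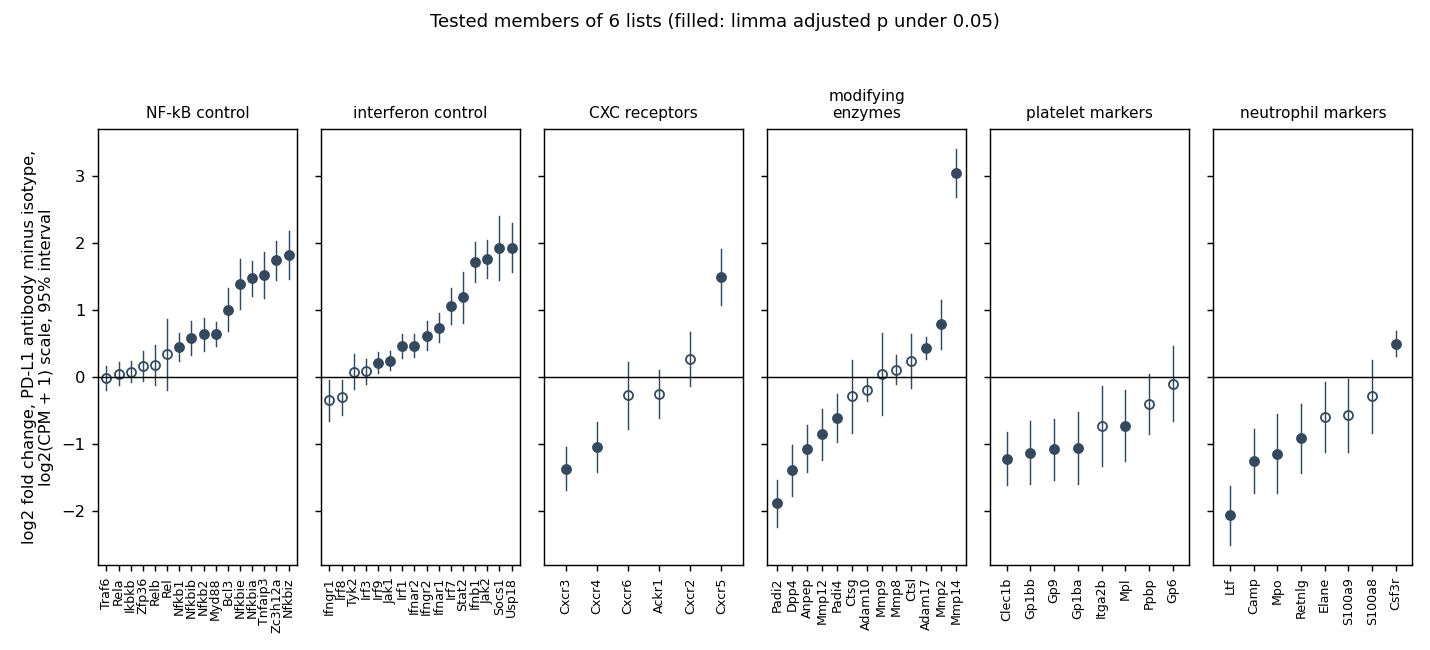
Change with the antibody against isotype (vertical axis, difference of log2(CPM + 1) with its 95% interval) of the tested genes of 6 lists, 1 gene per position on the horizontal axis, filled where the limma adjusted p was under 0.05. The NF-kB list has 10 of 16 points filled and above 0, and the interferon list 11 of 15 without Ifnb1. The point of Ifnb1 is drawn filled but not counted, because this gene passed the filter only through the antibody libraries. The receptors have 1 filled point above 0 and 2 below, where 18.2% of all tested genes were called in each direction.

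Markers of cell types were counted as well, beside 18.2% of all tested genes called higher and 18.2% lower against isotype. Neutrophil and precursor markers had 1 higher and 4 lower of 8 tested against isotype, with sums of 424 to 548 CPM with the antibody, 569 to 975 with isotype and 455 to 586 untreated. Dendritic cell markers had 1 higher and 4 lower of 6, with sums of 37.0 to 48.0, 66.3 to 72.3 and 53.6 to 73.2 CPM. B cell markers had none called of 2 tested, with sums of 4.51 to 5.60, 5.19 to 6.64 and 5.09 to 10.2 CPM. Of the macrophage markers 4 were higher and 1 lower of 8. The higher ones were Cd14 (1.71), Fcgr1 (1.45), Adgre1 (1.28) and Itgam (1.15). Outside the naming rule, Cd68 was lower (-0.58, limma adjusted p 0.000478), and Csf1r (0.05), Mertk (-0.01) and Lyz2 (-0.19) were not called. One neutrophil marker (Retnlg) and 1 dendritic cell marker (Clec9a) reached the filter level only in control libraries. Both are among the markers counted as lower, and their calls add no support to those counts. The part of these cells in the ligand levels was not tested.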

How the data were processed

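Messenger RNA of 9 libraries of mouse bone-marrow-derived macrophages was selected with oligo(dT) and sequenced as 150-base pairs on a HiSeq instrument. The authors deposited 1 transcript table per library with a read count over each transcript's span, the average coverage (signal) of its exons, its exon length and the percent of exonic bases covered. Partek and STAR were used, per the submitters' processing notes, and their versions, the annotation, the genome build and the strand setting are not given in the sources used here. Of 21782 symbols, 99.6% overlapped the RefSeq gene of that name in GRCm38.p6.

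The deposited span counts include introns, so exonic read equivalents were computed from the deposited values as average coverage times exon length divided by 150. The transcript with the most exonic reads over the 9 libraries stood for each symbol. Genes were filtered with filterByExpr and scaled with TMM (edgeR 4.0.16, R 4.3.3). Values of log2(CPM + 1), a pseudocount of 1, were tested with limma 3.58.1 (trended variance, two-sided, all 9 libraries in 1 fit, Benjamini-Hochberg over 13743 genes, threshold 0.05). The fold change on this scale understates the change of low genes. The method was tested on simulated data. Motifs and sequence comparisons used Python 3.11.15 and Biopython 1.88.

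All 10 ligands are named. Of each further list, up to 4 genes with the lowest p against isotype are named, and every tested member is counted. Genes named beyond this were picked after their values were seen. One gene of the interferon list is not reported here and is left out of its counts. The ligands and the lists were chosen with earlier results of these data known. Since the labels name no separate mice or cultures, p-values reflect the spread among these libraries alone, which may be technical. Reads carry no molecular identifiers and are not independent molecules. Alternatives covered scaling, filter, pseudocount, edgeR, DESeq2 1.42.0 and limma-voom on exonic reads rounded to whole numbers, edgeR on the deposited span counts, the choice of transcript, pairs of groups alone, a stricter threshold and each library left out.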

Additional observations from a re-analysis of the deposited data

How the results depend on the processing

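In 24 alternatives (1 of them, the protein-coding transcripts of Cxcl11 and Cxcl16, chosen after seeing the data) no ligand changed direction in a called comparison. Of the ligands called against isotype, 8 kept their call throughout. Cxcl5 lost its call against isotype under 6 of 23 alternatives (change 0.61 to 2.04, adjusted p 0.00816 to 0.11) and against untreated cells under 9 of 23 (0.49 to 1.64, adjusted p 0.017 to 0.133), among them no filter on low values and edgeR on the deposited counts. It was not tested under the filter of 1 CPM in 3 libraries. At an adjusted p under 0.01, 3228 genes were called against isotype, 3821 against untreated cells and 0 between isotype and untreated, and Cxcl14 lost its call against untreated cells.

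Scaling by total counts alone moved the median of all genes by -0.142 against isotype and -0.123 against untreated cells, and the calls from 2496 higher and 2501 lower to 1565 and 4143, and from 3017 and 2814 to 1940 and 4088. Upper quartile scaling gave 2401 and 3434 against untreated cells. Between isotype and untreated cells 1 gene was called, against 2 with total counts, 0 with edgeR, 13 with DESeq2, 0 with limma-voom, 2 with edgeR on the deposited counts and 0 with only these groups. Leaving out 1 library gave 0 to 2295 genes and 0 to 2 ligands, the highest of each without untreated library 7. The cause was not tested.

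No paired analysis was possible because the groups share no replicate numbers (1 to 3, 4 to 6 and 7 to 9). With 3 libraries a group, the SE was largest for Cxcl9 (0.39) and Cxcl3 (0.31). Cxcl1, Cxcl3, Cxcl5, Cxcl9 and Cxcl11 had under 190 exonic read equivalents in each control library, which limits the precision of their control levels.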

Other observations

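Of 13 tested enzymes that shed, cut or modify CXC chemokines, 3 were higher and 5 lower against isotype, where 18.2% of all tested genes were called in each direction, with a median of -0.19 beside -0.01 over all tested genes. Against untreated cells 4 were higher and 4 lower (22% and 20.5% of all tested genes). As a group they were not tested against other genes. Mmp14, a membrane-bound matrix metalloproteinase, stood at 1287, 1236 and 1517 CPM with the antibody, 219.5, 146.7 and 132.7 CPM with isotype and 213.1, 213.0 and 250.9 CPM untreated. It rose by 3.04 (limma adjusted p 2.44e-07) against isotype, with no overlap. Padi2, a peptidylarginine deiminase that turns arginine into citrulline, fell by 1.88 (limma adjusted p 5.41e-06), from 33.3 ± 5.96 to 8.26 ± 0.941 CPM. Dpp4, the dipeptidyl peptidase that trims the ends of Cxcl9, Cxcl10 and Cxcl11, fell by 1.39 (limma adjusted p 0.000109). It stood at 3.56 to 4.31 CPM with the antibody against 10.7 to 13.4 with isotype and 6.06 to 10.3 untreated. Anpep, aminopeptidase N, fell by 1.07 (adjusted p 0.000341).

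The sheddases that release Cxcl16 from the membrane fall outside the rule for naming genes and were picked after their values were seen. Adam17 stood at 322.5 to 333.7 CPM with the antibody and 235.6 to 254.2 with isotype, and rose by 0.44 (limma adjusted p 0.000826). Adam10 stood at 150.5 to 162.3 CPM with the antibody and 166.9 to 188.5 with isotype, and was not called (-0.19, adjusted p 0.0822).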
